A study of Homo sapiens with 24 samples.

Results

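Wild-type H9 cells grown alone, without the light-responsive receptor, were compared under light and in the dark. H9 is an established human embryonic stem cell line. The comparison took the 6 libraries whose titles name wild-type monoculture, of 24 in the series, and asks what illumination itself does to cells that cannot read it through the receptor. The light group held 3 wild-type monocultures given 0.8 µW/mm2 for 48 h, and the dark group held 3 wild-type monocultures kept without light for the same 48 h. Each biological replicate pooled 2 to 3 wells, so p-values measure only the spread between pools of wells and not that between lines. In the main test that spread was estimated over 12 monoculture libraries, 6 of them of the engineered cells described below. Of 28297 Ensembl genes in the authors' table, 19444 passed a filter on low values (a normalised read count of at least 10 in at least 3 of the 12 monoculture libraries) and were tested. In the rest of the series, the engineered (Cry2) cells carry a fusion of the plant photoreceptor Cry2 with the intracellular part of LRP6, and co-cultures mixed those cells with wild-type cells that were then sorted as GFP-positive.

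Cells without an engineered photoreceptor can still meet light through flavins, porphyrins and other coloured molecules, in the cell or in the medium, which can form reactive oxygen species when illuminated. Gene groups used as readouts of such stress include the heat shock chaperones, which HSF1 switches on when proteins misfold, the NRF2 antioxidant genes and the p53 targets. Another group, the immediate early genes and the DUSP phosphatases, follows ERK signalling, while the cold-inducible RNA-binding proteins and the CLK kinases change with temperature in many cell types.

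Construct transcripts fitted the titles, although the genotype tag of the monoculture labels names the opposite genotype. The 6 wild-type libraries held no read of the puromycin resistance gene that marks the engineered line. They carried eGFP, at 14532 ± 402 (SD, n = 3) in the dark and 13035 ± 377 (SD, n = 3) under light. Reads of the Cry2 fusion stood at 382 ± 51.6 in the dark and 272 ± 47.3 under light, far under the 35763 ± 1616 of the dark engineered monoculture. LRP6, whose intracellular part is in the fusion so that reads cannot be assigned with certainty, stood at 3315, 3546 and 2853 in the dark and at 3240, 1846 and 2849 under light (exact two-sided permutation p = 0.2, with 0.1 the smallest p that 3 against 3 allows).

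The cells looked like pluripotent stem cells in both groups. The summed normalised read count of 8 pluripotency markers ran from 322657 to 335497 in the dark and from 341383 to 350437 under light, higher in every light library. POU5F1 had the largest difference, with means of 95080 in the dark and 107550 under light. Means of NANOG, TDGF1, DNMT3B and L1TD1 were also higher under light, and those of SOX2, DPPA4 and LIN28A were lower. Markers of other fates had low sums next to the pluripotency sums, apart from the fibroblast collagens. Among those other fates the endoderm sum alone separated the groups. Sums were 180 to 236 in the dark and 183 to 208 under light for 5 mesoderm markers, and 37.2 to 47.3 against 47.5 to 123 for 4 endoderm markers. In the latter, light replicate 2 was the high library, through FOXA2 at 122. SOX17 had no read in any dark library and 1 read in the light libraries together. The 4 neural markers summed to 13.7 to 27.5 in the dark and 16.8 to 39.8 under light. Amnion and surface ectoderm markers summed to 971 to 1164 and 1069 to 1079, nearly all of it KRT7 and GABRP. The 4 fibroblast markers measured summed to 7798 to 8174 and 7736 to 8005, nearly all of it COL1A1 and COL1A2, with COL3A1 at or below 1.4 in all 6 libraries. In bulk RNA, fewer cells of a type and less RNA per cell cannot be told apart.

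Depth differed between the groups and light replicate 2 stood apart, which bears on every value below. Assigned reads were 30693033 to 34291124 in the dark libraries and 45763662 to 54707558 in the light libraries, so depth and light are confounded; with every library thinned to equal depth, 13 of the 14 genes described below were called again. Read counts of light replicate 2 differed from those of light replicates 1 and 3 by 56.79 and 46.7 times the counting noise expected per degree of freedom, against 4.48 to 5.66 for the other 4 pairs within groups. Dark replicate 1 was listed with a GC content of 33.73%, against 50.58 to 51.02% in the other 5 libraries.

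By limma, few genes passed and their changes were small; other models called more. With limma, with Benjamini-Hochberg adjusted p under 0.05 over all genes tested, 14 genes differed (0.072% of 19444): 6 rose (0.0309%) and 8 fell (0.0411%). In each of the 14 the 3 light libraries lay wholly above or wholly below the 3 dark libraries, a separation that 17.8% of all genes tested showed in either direction. Their log2 changes were between 0.40 and 0.86 in size, so none reached a 2-fold change. The genes that rose were the phosphatase genes DUSP5 and DUSP6, the immediate early gene IER2, the ID3 inhibitor of differentiation, the chaperone gene DNAJB1 and CDC42EP2, whose product binds the GTPase CDC42. Those that fell were the splicing kinase gene CLK1, the cold-inducible RNA-binding protein gene RBM3, the metabolic enzyme genes ACSS2 and H6PD, the planar polarity gene PRICKLE1, the adhesion scaffold gene NEDD9, LRIG2 and the zinc finger gene ZNF721.

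Of the 14, only CLK1 and ACSS2 stayed past the threshold in all 22 settings run. The libraries mattered: 3 of the 14 remained without dark replicate 1 (CLK1, ACSS2 and ID3) and 3 without dark replicate 2 (CLK1, ACSS2 and DUSP5). There were 7 of the 14 without dark replicate 3, 8 without light replicate 3, and all 14 without light replicate 1 or without light replicate 2. Fitted on the 6 wild-type libraries alone, 3 of the 14 remained by limma and 3 by edgeR. With a replicate block, a term for the replicate number, 2 remained. In all 22 settings each of the 14 kept its direction. That adds no support, since light and dark libraries of these genes do not overlap and the direction could hardly change. By edgeR on the reads recovered from the authors' values, all 14 were called again among 47 genes (0.242%; 24 higher, 0.123%, and 23 lower, 0.118%). By DESeq2 290 genes were called (1.49%; 0.576% higher and 0.915% lower), with the 14 among them. With a weight for each library limma called 992 (5.1%; 2.14% higher and 2.96% lower), again with the 14 among them. Of those 992, 184 had a log2 change over 1 in size, up to 4.11, and 156 of the 184 had a mean under 50 in both groups.

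**Figure D1:**
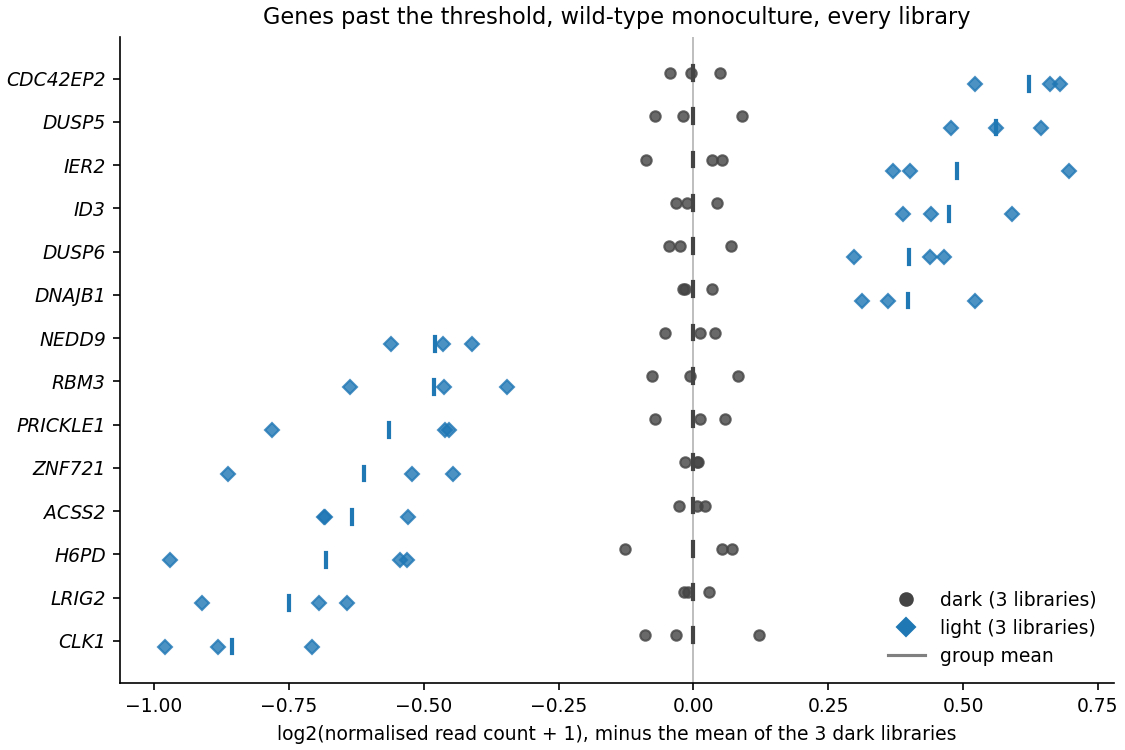
Each library's log2(normalised read count + 1) of the 14 genes past the threshold, with the mean of the 3 dark libraries set to 0; circles are dark libraries, diamonds light libraries and bars group means. No light library of any of the 14 genes falls within the range of the dark libraries, and no mean moves by as much as 1, a 2-fold change.

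**Figure D2:**
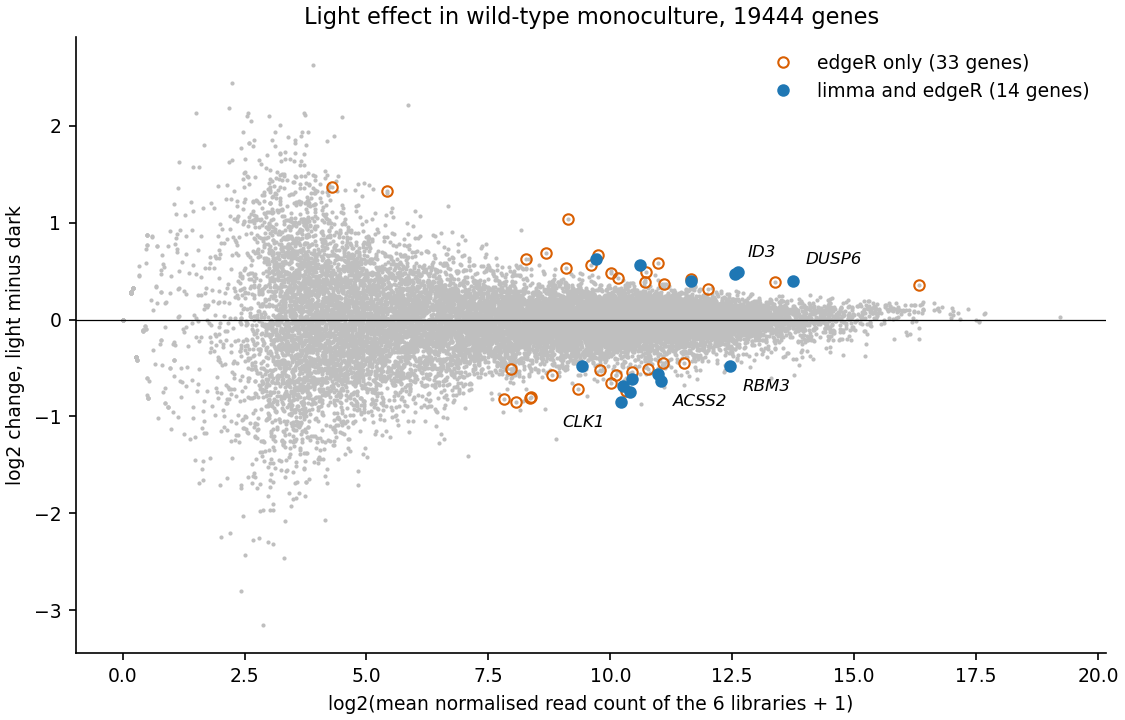
Log2 change (light minus dark) of all 19444 genes tested against their mean level in the 6 libraries. The 14 filled genes passed limma and edgeR and the 33 open ones passed edgeR only; the scatter over all genes is widest at low level.

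The ERK phosphatase genes DUSP5 and DUSP6 and, from the immediate early genes, IER2 rose. DUSP6, a cytoplasmic phosphatase that switches off ERK, stood at 11510, 11670 and 12459 in the dark and at 16377, 14597 and 16096 under light. Its lowest light library was well above the highest dark one, and it rose by a log2 change of 0.40 ± 0.06 (SE; limma adjusted p = 0.0278). DUSP5, a nuclear ERK phosphatase, was at 1200, 1342 and 1243 in the dark and at 1755, 1970 and 1860 under light. It rose by 0.56 ± 0.08 on the log2 scale (limma adjusted p = 0.0119). IER2, an immediate early transcription regulator, was at 4918, 5418 and 5350 in the dark and at 6755, 8460 and 6903 under light. Light replicate 2 was its highest library, and the log2 change was 0.49 ± 0.08 with it (limma adjusted p = 0.0312) and 0.39 without it (adjusted p = 0.00579). Without dark replicate 1, DUSP5, DUSP6 and IER2 had limma adjusted p of 0.137, 0.182 and 0.199.

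No other ERK feedback gene passed limma. Among 11 such genes, 2 rose (0.0309% of all genes did) and 0 fell (0.0411%), with a median log2 change of -0.13 against -0.0037 over all genes tested. In every light library 3 of the 11 were higher (7.92% of all genes) and 4 lower (9.93%). ETV4, an ERK-induced transcription factor gene, was the third on the higher side, with a log2 change of 0.14 ± 0.07 (limma adjusted p = 0.386). Among the genes for the Sprouty and SPRED inhibitors of ERK, SPRY1 had a log2 change of -0.39 ± 0.09 (limma adjusted p = 0.1) and SPRED1 one of -0.29 ± 0.10 (limma adjusted p = 0.276). PHLDA1 was at 2541, 2720 and 2216 in the dark and at 1805, 1889 and 1761 under light. It passed edgeR's test (adjusted p = 0.0339) and not limma's (adjusted p = 0.058; 0.015 without light replicate 2). Of 20 immediate early genes, IER2 alone passed limma, where 0.072% of all genes did in either direction. FOS was at 222, 232 and 235 in the dark and at 247, 302 and 300 under light, a log2 change of 0.30 ± 0.13 (limma adjusted p = 0.363). EGR1 had a wide interval, -0.46 to 0.88, since its dark libraries ran from 57.8 to 204.

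ID3 was the only BMP target past the threshold, and its close relatives lay on the same side. The ID proteins block basic helix-loop-helix transcription factors and are switched on by BMP through SMAD proteins. ID3 was at 5223, 4955 and 5024 in the dark and at 6630, 7634 and 6873 under light. It rose by 0.47 ± 0.06 on the log2 scale (limma adjusted p = 0.00884) and by 0.41 without light replicate 2, and its adjusted p was 0.092 without dark replicate 2. ID1 was at 1380, 1347 and 1514 in the dark and at 1833, 2367 and 1793 under light. ID2 was at 271, 362 and 309 in the dark and at 473, 590 and 459 under light. SMAD7, which encodes an inhibitor of the pathway, was at 834, 802 and 958 in the dark and at 1226, 1220 and 1171 under light. In these 3 genes, too, every light library lay above every dark one. ID1, ID2 and SMAD7 passed edgeR's test (adjusted p = 0.0373, 0.027 and 0.026) but not limma's (adjusted p = 0.0888, 0.0765 and 0.058). Of the 12 BMP and SMAD targets tested, 11 had a positive log2 change, 4 separated the groups upward (7.92% of all genes did) and the median was 0.36. BAMBI, another target, was at 600, 625 and 664 in the dark and at 632, 737 and 643 under light, with overlapping groups, and ID4 did not separate the groups either.

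Most heat shock chaperone genes were higher in every light library, though only 1 passed limma's threshold. Of 14 members, 10 separated the groups upward (7.92% of all genes did) and 0 downward, and 12 had a positive log2 change, with a median of 0.31. DNAJB1, which encodes the co-chaperone that delivers clients to HSP70, was the member past limma's threshold. It was at 2733, 2828 and 2724 in the dark and at 3427, 3966 and 3545 under light, and it rose by 0.40 ± 0.07 on the log2 scale (limma adjusted p = 0.0341; 0.199 without dark replicate 1). By edgeR 6 of the 14 passed, all higher, where 0.123% of all genes were called higher: DNAJB1, DNAJA1, HSPA8, HSPA1A, HSPA1B and CHORDC1. HSPA8, the constitutive HSP70, was at 70568, 71021 and 76428 in the dark and at 85968, 100811 and 92220 under light (log2 change 0.35 ± 0.07; limma adjusted p = 0.0804). DNAJA1, another HSP70 co-chaperone, was at 8747, 9115 and 9604 in the dark and at 11285, 13086 and 11537 under light (log2 change 0.38 ± 0.07; limma adjusted p = 0.0613). CHORDC1, an HSP90 co-chaperone, was at 2547, 2799 and 2979 in the dark and at 3835, 3211 and 4097 under light (log2 change 0.42 ± 0.09; limma adjusted p = 0.0981).

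The heat-inducible HSP70 genes had larger changes at lower levels. HSPA1A was at 583, 624 and 684 in the dark and at 891, 1034 and 871 under light, a log2 change of 0.56 ± 0.10 (limma adjusted p = 0.0723). HSPA1B was at 736, 564 and 689 in the dark and at 973, 1103 and 1080 under light, a log2 change of 0.67 ± 0.15 (limma adjusted p = 0.0981). The sequences of this pair are nearly identical, so the division of reads between them is uncertain. At the other end, the HSP90 gene HSP90AB1 was at 198983, 188007 and 196112 in the dark and at 188016, 196237 and 187889 under light, with overlapping groups. The limma count of this group was 0 without dark replicate 1, 2 or 3 or light replicate 3, 3 without light replicate 1 and 4 without light replicate 2.

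**Figure D3:**
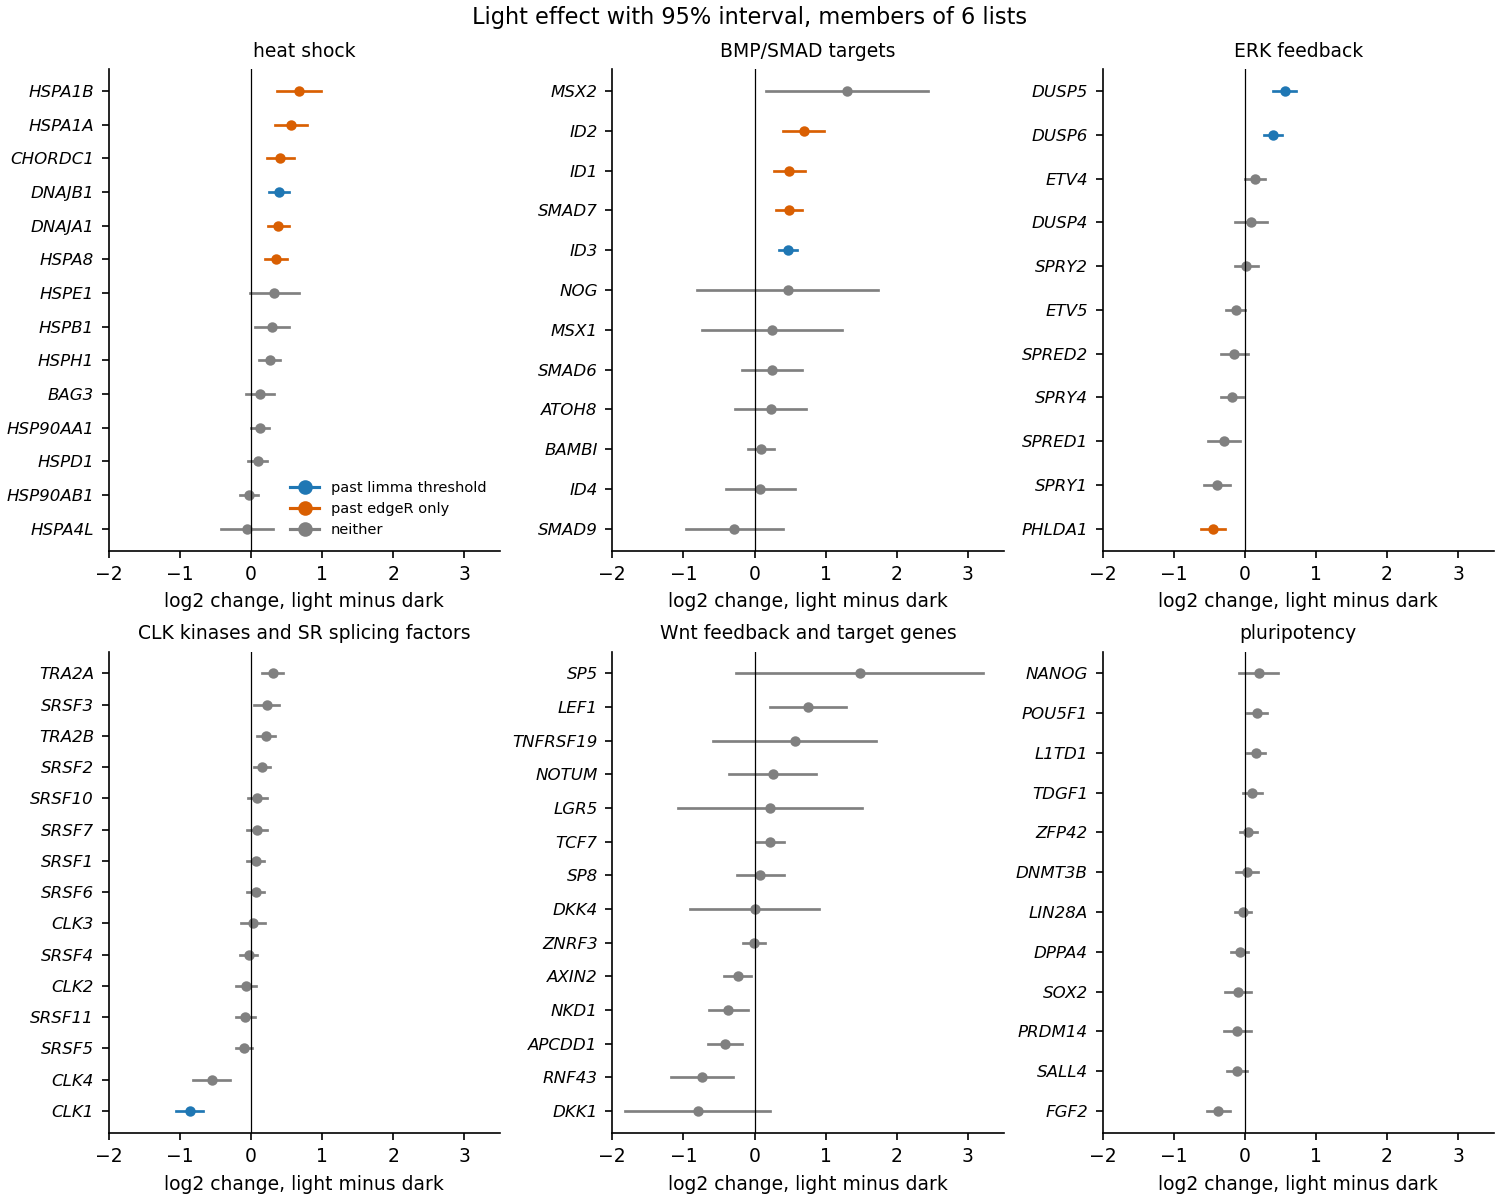
Log2 change (light minus dark) with its 95% interval for every tested member of 6 gene groups, coloured by the test it passed. Heat shock and BMP target genes lie mostly to the right of 0, ERK feedback genes to both sides, and CLK1 stands to the left of the other splicing genes, while the estimates of all pluripotency genes lie within 0.4 of 0.

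The promoters of the heat shock genes are shown because 11 of the 14 hold the letters of a heat shock element. Windows were the 250 bases before each RefSeq start (GRCh38.p14), read on both strands, and a gene counted if any of its windows matched. The element was searched as GAANNTTC and, in its other phase, as TTCNNGAA; the patterns overlap where repeats run on. Of 27305 genes with a window, 14% held either form. Among the 12 genes past the threshold that have a window, DNAJB1 and RBM3 held it. Of the 10 heat shock members that separated the groups, 9 held it, and of the other 4, 2 did. That split was made by the same light and dark values, and the list was written as one of heat shock genes. A link between element and change was therefore not tested. The genes printed are DNAJB1 and RBM3, from the 14, with HSPA8 and CHORDC1 chosen after their values were seen, and capitals mark every match of either form. HSPA8 is at chr11:123062137-123062386 (minus strand), CHORDC1 at chr11:90223050-90223299 (minus strand), DNAJB1 at chr19:14518398-14518647 (minus strand) and RBM3 at chrX:48574234-48574483 (plus strand).
HSPA8: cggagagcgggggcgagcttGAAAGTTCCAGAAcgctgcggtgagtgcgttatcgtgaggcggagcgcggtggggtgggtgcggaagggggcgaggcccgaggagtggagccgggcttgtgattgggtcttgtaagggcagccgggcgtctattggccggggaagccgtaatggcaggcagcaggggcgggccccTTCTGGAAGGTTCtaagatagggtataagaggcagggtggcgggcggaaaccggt
CHORDC1: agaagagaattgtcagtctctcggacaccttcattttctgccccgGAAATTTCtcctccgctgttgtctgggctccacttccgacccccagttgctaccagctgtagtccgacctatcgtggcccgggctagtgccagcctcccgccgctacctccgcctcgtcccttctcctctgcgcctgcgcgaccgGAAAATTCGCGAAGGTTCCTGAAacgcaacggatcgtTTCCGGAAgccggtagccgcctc
DNAJB1: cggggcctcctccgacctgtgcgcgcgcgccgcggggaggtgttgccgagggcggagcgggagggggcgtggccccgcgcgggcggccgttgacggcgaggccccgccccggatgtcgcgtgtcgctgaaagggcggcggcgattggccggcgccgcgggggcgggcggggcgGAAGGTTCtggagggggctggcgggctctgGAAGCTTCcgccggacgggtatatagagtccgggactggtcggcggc
RBM3: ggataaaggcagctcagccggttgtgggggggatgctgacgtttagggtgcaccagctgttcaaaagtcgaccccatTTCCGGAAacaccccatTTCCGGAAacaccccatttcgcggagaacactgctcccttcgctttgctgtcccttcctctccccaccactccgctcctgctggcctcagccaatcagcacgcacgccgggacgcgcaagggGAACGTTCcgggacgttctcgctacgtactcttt
HSPA8, CHORDC1 and DNAJB1 had higher values under light and RBM3 lower values, so the same letters stand before genes that went in opposite directions. A match is a description of the sequence only. Of the other patterns searched in the same windows, the 12 held the cAMP response element TGACGTCA in 0 (2.03% of all genes), the SMAD-type GGCGCC in 2 (19%), the E-box CACGTG in 0 (7.73%) and the sterol element TCACNCCAC in 1 (1.09%). The SMAD-type matches lay before CLK1 and DNAJB1, and the sterol match before IER2.

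CLK1 had the largest change of the 14. It encodes a kinase that phosphorylates SR splicing factors (ENSG00000013441; GRCh38 chromosome 2, 200853009 to 200864744, minus strand). It was at 1492, 1433 and 1659 in the dark and at 773, 934 and 827 under light. It fell by 0.86 on the log2 scale (95% interval -1.05 to -0.67; limma adjusted p = 0.00102), to a mean 44.7% lower, and by 0.93 without light replicate 2. Its relative CLK4 was at 421, 475 and 568 in the dark and at 364, 330 and 300 under light, which did not pass (log2 change -0.55 ± 0.12; limma adjusted p = 0.115). CLK2 and CLK3 had log2 changes of -0.06 ± 0.07 and 0.03 ± 0.08. Among the 15 CLK kinases and SR splicing factors, CLK1 alone passed limma (0.0411% of all genes were called lower). Intervals lay wholly within 0.5 of no change in 13 (50.6% of all genes, 68.4% of those with a mean of at least 50). The files count whole genes, so spliced forms of CLK1 cannot be told apart.

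RBM3, an RNA-binding protein gene induced by cold, was at 6507, 6202 and 6924 in the dark and at 4206, 5142 and 4746 under light (chromosome X, 48574449 to 48579066, plus strand). It fell by 0.48 on the log2 scale (limma adjusted p = 0.0279; 0.182 without dark replicate 1). CIRBP, the other cold-inducible gene measured, was at 5914, 5860 and 6041 in the dark. Under light it was at 4557, 5876 and 4706, with light replicate 2 inside the dark range. Its log2 change was -0.24 ± 0.08 (limma adjusted p = 0.245), and -0.36 without light replicate 2 (adjusted p = 0.00204).

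ACSS2 makes acetyl-CoA from acetate and is a target of the sterol-sensing SREBP factors (ENSG00000131069; chromosome 20, 34872146 to 34927962, plus strand). It was at 2557, 2499 and 2583 in the dark and at 1763, 1586 and 1584 under light. It fell by 0.63 on the log2 scale (95% interval -0.76 to -0.50; limma adjusted p = 0.000964), to a mean 35.4% lower. Of 26 sterol and fatty acid synthesis genes it was the only member past limma's threshold, where 0.0411% of all genes were called lower; 6 separated the groups downward (9.93% of all genes did), 19 had a negative change and the median was -0.07. H6PD, which makes NADPH inside the endoplasmic reticulum (chromosome 1, 9234775 to 9271337, plus strand), was at 1582, 1562 and 1379 in the dark and at 1032, 767 and 1041 under light. It fell by 0.68 on the log2 scale (limma adjusted p = 0.0295) and by 0.54 without light replicate 2, and its adjusted p was 0.195 without dark replicate 1.

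PRICKLE1, a cytoplasmic component of planar cell polarity signalling, was at 2418, 2282 and 2496 in the dark and at 1742, 1394 and 1750 under light (chromosome 12, 42456757 to 42590355, minus strand). It fell by 0.57 on the log2 scale (limma adjusted p = 0.0278; 0.182 without dark replicate 1). It was the only 1 of 11 planar polarity genes past limma's threshold (0.0411% of all genes were called lower). In that list 5 separated the groups downward (9.93% of all genes did), 1 upward (7.92%), and the median was -0.16. NEDD9, a scaffold at focal adhesions, was at 766, 818 and 802 in the dark and at 598, 539 and 576 under light (log2 change -0.48 ± 0.08; limma adjusted p = 0.0295). LRIG2, a membrane protein gene of the LRIG family, was at 1728, 1683 and 1674 in the dark and at 1047, 901 and 1085 under light (log2 change -0.75 ± 0.10; limma adjusted p = 0.0119). ZNF721 was at 1694, 1693 and 1667 in the dark and at 1236, 926 and 1172 under light (log2 change -0.61 ± 0.10; limma adjusted p = 0.0323). Light replicate 2 was the lowest library of PRICKLE1, NEDD9, LRIG2 and ZNF721. The last of the risers, CDC42EP2, was at 678, 653 and 636 in the dark and at 942, 1051 and 1037 under light (log2 change 0.62 ± 0.10; limma adjusted p = 0.0278). Without dark replicate 1, the adjusted p of NEDD9, LRIG2, ZNF721 and CDC42EP2 was 0.144, 0.137, 0.195 and 0.144.

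Beyond the 14, 33 genes passed edgeR only. JOSD2, a deubiquitinase gene, led the higher side, with 17.9, 24.9 and 28.6 in the dark and 52.8, 68.5 and 59.9 under light (edgeR adjusted p = 0.037; limma adjusted p = 0.0716). HMX2, a homeobox gene, was at 321, 361 and 415 in the dark and at 739, 780 and 729 under light (edgeR adjusted p = 0.000945; limma adjusted p = 0.149). LRAT, which esterifies retinol, was at 1296, 1617 and 1970 in the dark and at 2399, 2431 and 2406 under light (edgeR adjusted p = 0.037). Its dark libraries spread more than its light libraries. ARID5A and HYLS1 also stood on the higher side, with log2 changes of 0.62 ± 0.12 and 0.54 ± 0.11, as did genes described above such as ID2. On the lower side stood KLHL28, TENT5A, XKR5, KLHL8, PRUNE2, ZBTB11, ELK4 and PCSK5, with log2 changes from -0.85 to -0.58. TENT5A, a poly(A) polymerase gene, was at 304, 265 and 293 in the dark and at 160, 165 and 161 under light. In PRUNE2, by contrast, light replicate 2 at 669 was far below the other light libraries at 1063 and 1207.

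Pluripotency genes had narrow intervals, and 0 of 12 passed limma or edgeR; by DESeq2 1 was called lower, and with library weights 2 higher and 1 lower. POU5F1 was at 94185, 94744 and 96310 in the dark and at 99460, 114562 and 108628 under light, which separated the groups by a log2 change of 0.18 (95% interval 0.04 to 0.32; limma adjusted p = 0.295). SOX2 was at 8900, 9690 and 9314 in the dark and at 8469, 9007 and 8631 under light, with overlapping groups. NANOG was at 3660, 3720 and 3902 in the dark and at 4261, 4598 and 4097 under light (log2 change 0.20 ± 0.13; limma adjusted p = 0.515). Of the 12, 3 had an unadjusted p under 0.05 by limma (13.2% of all genes did). Intervals lay wholly within 0.5 of no change in 11 (50.6% of all genes, 68.4% of those with a mean of at least 50). The exception to the last was the growth factor gene FGF2, at 3732, 3953 and 3537 in the dark and 3174, 2727 and 2792 under light (log2 change -0.37 ± 0.07; limma adjusted p = 0.0804).

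Of 14 Wnt feedback and target genes 0 passed limma or edgeR in these cells, which lack the receptor, and 6 had an unadjusted p under 0.05 by limma (13.2% of all genes did). By DESeq2 2 were called lower, and with library weights 1 higher and 3 lower. AXIN2, the feedback inhibitor read most often as a measure of canonical Wnt signalling, was at 601, 592 and 641 in the dark and at 557, 496 and 503 under light. Its log2 change was -0.24 (95% interval -0.43 to -0.05; limma adjusted p = 0.302). LEF1, a nuclear effector of the pathway, was low in both groups, at 19.3, 14.9 and 17.4 in the dark and 32.9, 24.7 and 31.2 under light (log2 change 0.75 ± 0.25; limma adjusted p = 0.258). The 14 had a median log2 change of 0.04, with 2 higher (7.92% of all genes) and 3 lower (9.93%) in every light library. For weakly expressed targets little can be said: the interval of SP5 ran from -0.26 to 3.22, on normalised read counts of 0 to 11.4. Among 16 primitive streak and mesoderm genes, 0 passed limma, edgeR, DESeq2 or limma with library weights, and none separated the groups. At an unadjusted p under 0.05 by limma there were 0 (13.2% of all genes). Only 6 of the 16 had intervals wholly within 1 of no change (73.1% of all genes), and 2 within 0.5 (50.6%). The filter also counted engineered libraries, and MESP1 was at 1.4 to 9.5 in the 6 wild-type libraries. For such weakly expressed members the lack of calls says little. TBXT was at 15.1, 16.2 and 3.7 in the dark and at 10.7, 2.9 and 12 under light.

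Unlike the heat shock list, the lists of NRF2 antioxidant genes and p53 targets held 0 members past limma's or edgeR's threshold. At an unadjusted p under 0.05 by limma they held 5 of 16 (NRF2) and 2 of 17 (p53), where 13.2% of all genes did. By DESeq2, and likewise with library weights, 2 NRF2 genes were called higher and 1 lower, and 2 p53 targets lower. HMOX1, the NRF2 target that breaks down haem, was at 1463, 1350 and 1515 in the dark and at 1655, 2141 and 1991 under light (log2 change 0.41 ± 0.10; limma adjusted p = 0.162). NQO1, a quinone reductase gene, was at 2796, 3064 and 3161 in the dark and at 3415, 4290 and 3727 under light (log2 change 0.34 ± 0.08; limma adjusted p = 0.165). TXNRD1, of the same antioxidant group, had a log2 change of -0.09 ± 0.08, and SLC7A11, the cystine transporter, one of -0.43 ± 0.10. Of 16 NRF2 and antioxidant genes 4 were higher (7.92% of all genes) and 2 lower (9.93%) in every light library. The p53 targets CDKN1A and MDM2 were on the lower side. CDKN1A was at 1073, 1164 and 982 in the dark and at 844, 694 and 758 under light (log2 change -0.49 ± 0.10; limma adjusted p = 0.093). MDM2 had a log2 change of -0.32 ± 0.08 (limma adjusted p = 0.173), and of 17 p53 targets 0 were higher (7.92% of all genes) and 3 lower (9.93%) in every light library.

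Of 12 genes of the endoplasmic reticulum unfolded protein response 0 passed limma, edgeR or DESeq2, 2 were called higher with library weights, and 4 had an unadjusted p under 0.05 by limma (13.2% of all genes did). A positive log2 change was seen in 11, and 4 were higher in every light library (7.92% of all genes); the median was 0.12. HSPA5, the main chaperone of that compartment, was at 26081, 25867 and 26915 in the dark and at 28262, 31782 and 29118 under light (log2 change 0.18 ± 0.06; limma adjusted p = 0.246). Of 11 integrated stress response genes, 3 were higher in every light library (7.92% of all genes), 0 passed limma or edgeR, 1 was called higher by DESeq2 and 2 with library weights, with CHAC1, a glutathione-degrading enzyme gene, nearest to the threshold (log2 change 0.32 ± 0.07; limma adjusted p = 0.0981).

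Clock genes and the endogenous cryptochromes gave 0 calls by limma or edgeR at this single time, with 2 of 18 clock genes at an unadjusted p under 0.05 by limma, near the 13.2% of all genes. By DESeq2 1 clock gene was called lower, and with library weights 1 higher and 1 lower. PER1 was at 1343, 1196 and 1370 in the dark and at 1529, 1545 and 1449 under light (log2 change 0.21 ± 0.08; limma adjusted p = 0.313). The human cryptochrome genes CRY1 and CRY2 had log2 changes of -0.02 ± 0.09 and -0.03 ± 0.08. Of 18 clock genes, 12 had intervals wholly within 0.5 of no change (50.6% of all genes, 68.4% of those with a mean of at least 50). OPN3, the opsin gene that passed the filter, was at 1033, 938 and 1059 in the dark and at 1152, 1329 and 1054 under light. The opsin genes RRH and OPN1SW were below the filter. Lists for NODAL, YAP targets, metallothioneins, glycolysis and hypoxia, the respiratory chain, the cell cycle and nuclear long noncoding RNAs held 0 genes past limma's or edgeR's threshold, with medians from -0.21 to 0.20. By DESeq2 1 long noncoding RNA was called lower, and with library weights 2 of those, 2 cell cycle genes lower and 1 glycolysis gene higher. The lists for definitive endoderm, neural ectoderm, amnion and surface ectoderm, and fibroblasts likewise held 0 by either test, on 7, 3, 5 and 4 tested members. DESeq2 and library weights each called 1 endoderm gene lower. In these 4 lists, in that order, 0, 1, 3 and 2 members had intervals wholly within 1 of no change. GATA4, GATA6, GATA3, ISL1 and COL3A1 were under 10 in all 6 wild-type libraries and met the filter through engineered libraries. For such members the lack of calls says little.

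How large an effect these libraries leave possible can be read from the intervals. The 95% interval of the log2 change lay wholly within 1 of no change in 73.1% of the 19444 genes (14209), and wholly within 0.5 in 50.6%. Among 14378 genes with a mean of at least 50 in either group, the shares were 94.3% and 68.4%. At an unadjusted p under 0.05 there were 2559 genes (13.2%), against 972 if no gene differed and the p-values were independent. At an adjusted p under 0.10 there were 72 (0.37%). The count at an unadjusted p under 0.05 ran from 1731 to 3651 when 1 wild-type library was left out, with 1814 without light replicate 2. Fitted on the 6 wild-type libraries alone it was 1795 of 17935 genes.

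The same light gave an uneven picture in wild-type cells sorted from co-culture. Those libraries share no sample with the monocultures, but the cells had grown beside illuminated engineered cells and had been sorted. All 14 genes had a log2 change of the same sign there. The share of all genes with the same sign in both was not computed, so this count has no background. Of the 14, 3 passed, where 4.6% of all genes did (2.39% higher and 2.21% lower): ID3 (2.15 ± 0.18, limma adjusted p = 6.02e-06), PRICKLE1 (-3.03 ± 0.16, adjusted p = 7.46e-08) and NEDD9 (-0.80 ± 0.18, adjusted p = 0.0212). The difference between the co-culture and monoculture effects passed for ID3 (1.68, adjusted p = 1.57e-05) and PRICKLE1 (-2.46, adjusted p = 9.06e-09), where 2.3% of genes did (1.41% higher and 0.886% lower in co-culture). Since the 14 were chosen by the monoculture effect that this difference subtracts, the share of all genes is not a like background. For the other 12 it did not pass, which does not show that the effects are equal: CLK1 changed by -0.86 in monoculture and had -0.18 ± 0.26 in co-culture. Of the heat shock genes, 2 of 14 passed in the co-culture (HSPA8 at 0.56 and DNAJA1 at 0.38), and none differed from the monoculture.

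In the engineered monoculture, where light also acts on the Wnt receptor and 58.4% of genes passed (28.1% higher and 30.4% lower), 10 of the 14 had the same sign. For all genes that share was not computed either. RBM3 had a log2 change of 0.00 ± 0.07 there (adjusted p = 0.994) and CLK1 one of 0.18 ± 0.09 (adjusted p = 0.0936). NEDD9, H6PD and CDC42EP2 passed in the opposite direction to the wild-type cells, NEDD9 at 2.50 ± 0.08, H6PD at 1.00 ± 0.11 and CDC42EP2 at -0.49 ± 0.10. The other 9 that passed did so in the same direction as in the wild-type cells: IER2, DUSP6, DUSP5, LRIG2, ID3, PRICKLE1, ACSS2, DNAJB1 and ZNF721. The difference between the lines did not pass for the first 4 of these. It passed for the other 10 of the 14, and for 47.8% of all genes (22.8% higher and 25% lower). Here too the difference subtracts the effect by which the 14 were chosen, so that share is not a like background. For IER2 the values lay closest, 0.49 ± 0.08 in wild-type and 0.48 ± 0.08 in engineered cells.

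**Figure D4:**
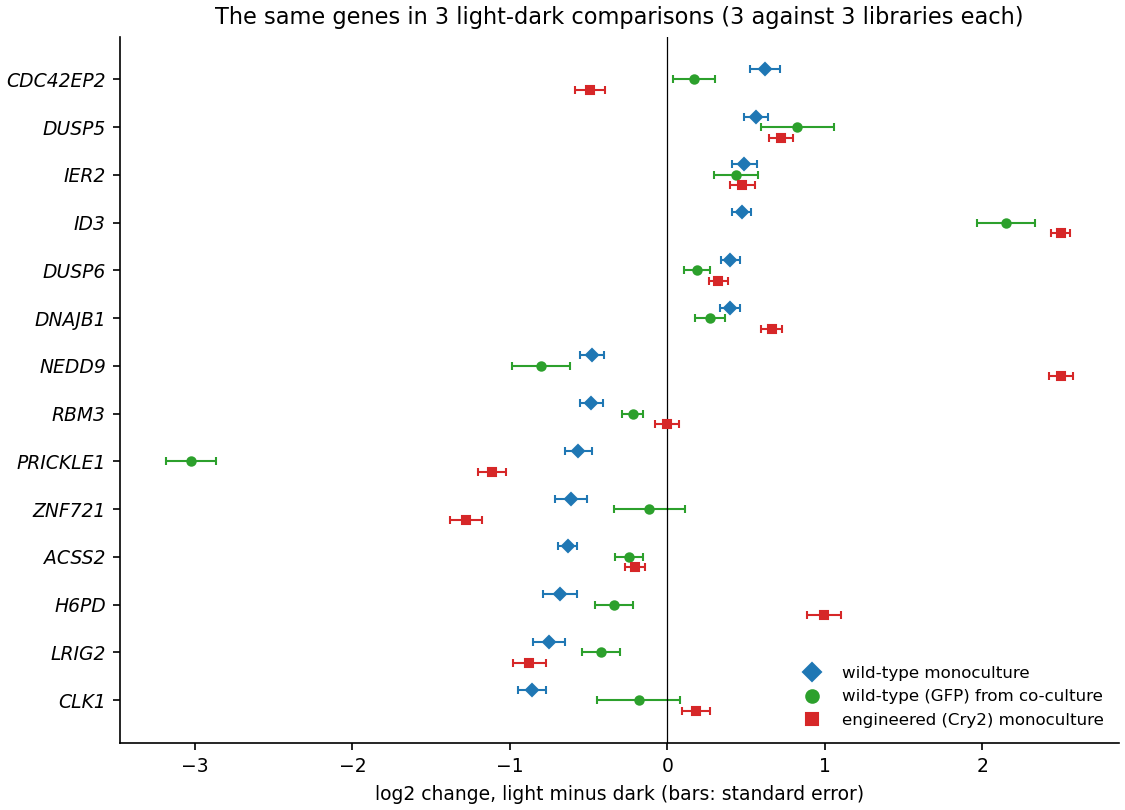
Log2 change (light minus dark) with its standard error for the 14 genes in wild-type monoculture, in wild-type cells sorted from co-culture and in engineered monoculture, 3 against 3 libraries each. IER2, DUSP5 and DUSP6 lie close together in all 3, while ID3, PRICKLE1 and NEDD9 do not.

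Light replicate 2 differed from its group by gene length. Relative to light replicates 1 and 3 its values had a median log2 difference of 0.22 in the shortest of 4 equal groups of genes by summed exon length and of -0.23 in the longest. Over the same groups the median light effect ran from 0.08 to -0.09, and without light replicate 2 from 0.01 to -0.02. Of the 8 genes that fell, 4 were in the longest group, and of the 6 that rose, 0 were. All 14 were called again without that library. Among the genes lowest in it against its group, FREM2 was at 3266 and 2886 in the other light libraries and at 1054 in replicate 2, and NFAT5 at 780 and 786 against 251. At the other end stood NDUFC2, at 247 and 296 in the other light libraries and at 611 in replicate 2. Its RNA integrity number was 9.2, against 8.9 to 10 in the other 5 libraries. What sets it apart was not tested.

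**Figure D5:**
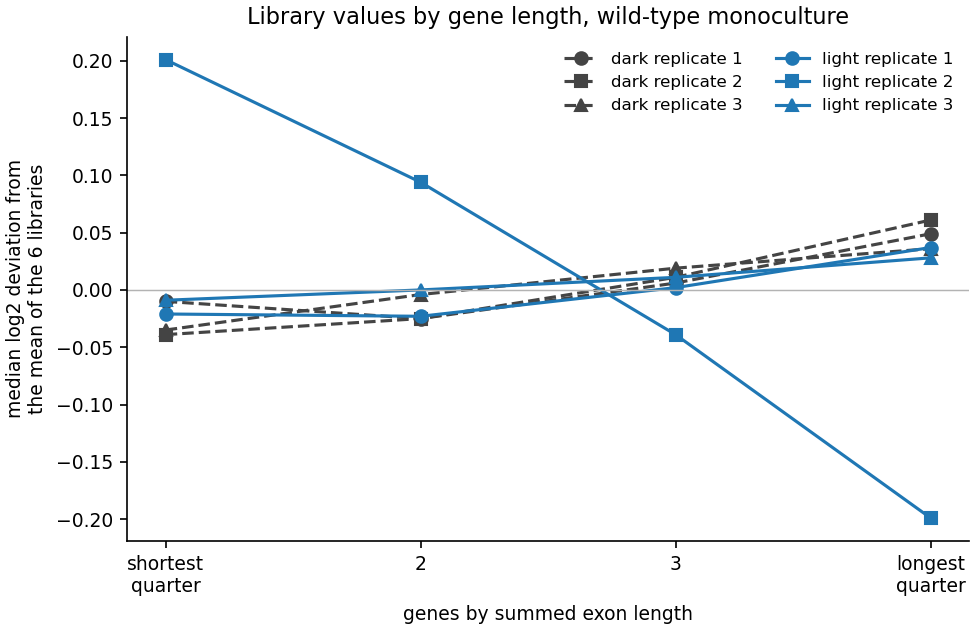
Median log2 deviation of each wild-type library from the mean of the 6, for genes split into 4 groups by summed exon length. Light replicate 2 runs from 0.20 in the shortest group to -0.20 in the longest, while the other 5 libraries stay between -0.04 and 0.06.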

How the data were processed

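RNA from 12 monoculture and 12 sorted co-culture samples had been sequenced, and the 6 wild-type monoculture libraries are compared here. The submitters' processing notes name STAR, HTSeq, DESeq, Bowtie2, cutadapt and FastQC (no versions) and GRCh38 as the build; per the file headers of the authors' sample table the build was hg19 with 4 extra genes. That conflict was not resolved, so coordinates come from GENCODE 29 (GRCh38) by Ensembl identifier. Expression values are a normalised signal, as deposited by the authors; multiplied by 1 factor per library, 100.0% of values were whole within 0.01, which gives back the read counts. From the authors' sample table come, as deposited, each library's total read count, its GC and alignment in percent and its RNA integrity score. No source used here gives the strand setting of the counting; genes that overlap or lie antisense are therefore uncertain.

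The main test was limma-trend 3.58.1 (R 4.3.3) on log2(value + 1), fitted over the 12 monoculture libraries, with genes at 10 or more in at least 3 of them, two-sided, Benjamini-Hochberg adjusted p under 0.05; fold changes are therefore on the log2(value + 1) scale and understate those of low genes. The 12 co-culture libraries were fitted alike, and differences of light effects over all 24 (co-culture minus monoculture) or the 12 monocultures (engineered minus wild type). edgeR 4.0.16 and DESeq2 1.42.0 on the recovered counts, other pseudocounts and filters, library weights, thinned reads, a replicate block and leaving out libraries were alternatives, and the functions were tested on simulated data. Shares of all genes tested that met the same rule were computed for each comparison, but not for agreement in sign between comparisons. The gene lists (28, with 337 of 342 members matched) and all choices were made with earlier results of these data known. Named were every gene past the threshold; up to 8 per direction past edgeR only, with a mean of at least 50; fixed genes; up to 4 per direction of a list; the 6 highest and 6 lowest genes of the most deviant library; and genes with the largest ratios. BAMBI, ID4, CLK2, CLK3 and CHORDC1 fall outside that rule and were named after their values were seen. Promoter windows, the 6 motif patterns and the printed promoters were also chosen after values were seen. DCN, LUM, OPN4, OPN5 and CAT were not analysed here.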

Additional observations from a re-analysis of the deposited data

Results flagged for a closer look

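Of the 47 genes past limma's or edgeR's threshold, the rule for named genes picked 30. Among these 30, light effects that differed from those of another light-dark comparison, by the test of the difference itself, are given here as log2 differences. The 30 were picked by the wild-type light effect that each difference subtracts. That choice favours differences opposite in sign to the wild-type effect, so the shares of all genes are not a like background. Against wild-type cells sorted from co-culture, 7 of the 30 differed, where 2.3% of all genes did (co-culture minus monoculture): ID3 by 1.68, ID2 by 1.68, KLHL8 by 0.882, ZBTB11 by 0.74, PCSK5 by 0.597, HMX2 by -2.12 and PRICKLE1 by -2.46. Against engineered monoculture, 17 of the 30 differed, near the 47.8% of all genes (engineered minus wild type). Higher in the engineered cells were NEDD9 by 2.98, ID3 by 2.03, PCSK5 by 2.03, ID2 by 1.7, H6PD by 1.68, XKR5 by 1.46, JOSD2 by 1.14, ARID5A by 1.14, CLK1 by 1.04, RBM3 by 0.481, ACSS2 by 0.428 and DNAJB1 by 0.265. Lower were HMX2 by -7.16, LRAT by -3.72, CDC42EP2 by -1.11, ZNF721 by -0.667 and PRICKLE1 by -0.548. Co-cultured cells had been sorted and had engineered neighbours, and the engineered cells also had their receptor switched on by light; these cannot be told apart from the culture.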

How the results depend on the processing

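Counts of genes higher and lower in wild-type cells, 6 and 8 as reported, moved most with the model. They were 24 and 23 by edgeR, 112 and 178 by DESeq2, 19 and 20 by voom, and 417 and 575 with library weights, which gave light replicate 3 a weight of 5.383 and light replicate 2 one of 0.177. At an adjusted p of 0.10 they were 37 and 35, without a filter 3 and 3, and with a pseudocount of 10 the higher count was 10. Fitted on the 6 wild-type libraries alone they were 1 and 3, also by edgeR, an alternative chosen after seeing the data. Without dark replicate 1 and the engineered dark replicate with low RNA integrity they were 0 and 2. Leaving out 1 wild-type library at a time gave 1 to 15 higher and 2 to 17 lower. With a replicate block 0 and 2 genes were called. Same-numbered libraries did not deviate together (correlations -0.048 to 0.019), and not every library correlated best with its own number. The labels give only a number, and with 3 libraries per group this check cannot exclude a shared preparation. A pseudocount of 0.5, a filter at 50, TMM scaling and thinning every library to equal depth kept both counts within 1.5 times. In co-culture the 465 higher and 429 lower genes became 255 to 419 and 215 to 362 when 1 library was left out. Counts of differing light effects and of narrow intervals stayed within 1.5 times under every alternative run for them. No named gene changed direction while past the threshold on either side. Replicates are pools of wells of 1 line, and depth limits the genes under a normalised read count of 50.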
